A study of Mus musculus with 10 samples.

Results

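The genes described here were 10 immediate-early genes outside the AP-1 family: the zinc finger factors Egr1, Egr2, Klf2, Klf4 and Klf6, the nuclear receptor Nr4a1, the bZIP factor Cebpb, the IER genes Ier2 and Ier5, and the phosphatase Dusp1. They were chosen by symbol from a count table of 24421 genes, all 10 were in it, and all 10 were among the 11846 genes whose counts were high enough to test. The table held RNA-seq of R2 cells, which are CD71+Ter119+ erythroid progenitors, sorted from the bone marrow of 10 transplanted mice. Lethally irradiated BoyJ recipients had been given bone marrow of Rosa-CreERT2 donors, in which a Cre recombinase made from the ubiquitously active Rosa26 locus is switched on by tamoxifen. All recipients, controls included, received tamoxifen (1 mg a day for 5 days, in 2 rounds), and cells were sorted 8 weeks after transplantation. There were 3 mice whose marrow was Ddx41+/+ Trp53+/+ (replicates 10, 11 and 12), 2 that were Ddx41+/- Trp53+/+ (replicates 32 and 34), 3 that were Ddx41+/+ Trp53+/- (replicates 22, 23 and 24) and 2 that were Ddx41+/- Trp53+/- (replicates 46 and 47). The Ddx41+/- state came from deletion of a floxed allele, and the Trp53+/- state from a germline knockout allele. The labels give C57BL/6N as the strain and name neither age nor sex. They describe no sort on donor cells, so cells of the recipient may be part of each library.

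Immediate-early genes are switched on within minutes of a growth factor, cytokine or stress signal, without new protein synthesis. Signals that run through MAP kinases reach them by way of the factors SRF, ELK and CREB, which already sit at their promoters, and the proteins they encode either carry the response forward as transcription factors or shut it off. Dusp1 belongs to the second kind, since it removes phosphate from MAP kinases. In marrow, several of these genes are also abundant in myeloid and lymphoid cells.

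Libraries held 7866648 to 20283930 counts (median 16614386), and scaling factors ran from 0.970 to 1.026. Levels are given in CPM, counts scaled to a library of 1000000 after this scaling, and always in the order of the replicates just listed. Ddx41 itself stood at 21.9 to 25.1 and 22.9 to 26.6 CPM in the Ddx41+/+ mice and at 13.8 to 16.5 and 12.5 to 15.6 CPM in the Ddx41+/- mice (Trp53+/+ first), with no overlap. Trp53 stood at 57.4 to 68.1 CPM in the 5 Trp53+/+ mice and at 40.3 to 46.2 CPM in the 5 Trp53+/- mice. Erythroid markers were high in every library, with Slc4a1 at 25470 to 30512 CPM, but the adult globin genes were nearly absent from the table, with Hbb-bt at 0 in all 10 libraries. In such bulk libraries a smaller number of cells of a type and less RNA per cell cannot be told apart. With 2 or 3 mice per genotype, it is the number of mice rather than depth that limits the precision of all genes here but Egr2.

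With Trp53+/+, 9 of the 10 genes were higher in both Ddx41+/- mice than in all 3 Ddx41+/+ mice, and Ier2 was the exception. The median difference was a log2 fold change of 0.67, against 0.00 for all genes tested. Klf6 alone rose by the rule used for calls, a fold change over 1.5 with an adjusted p under 0.05. Among all tested genes 12.9% were higher without overlap in this comparison, 5.52% were higher at an unadjusted p under 0.05 (9 of the 10 genes here) and 0.54% were called (1 of the 10). DESeq2 gave 8 of the 10 an unadjusted p under 0.05 and also called 1, Klf6, where it called 131 of all 11846 genes. The number called was 0 without replicate 10, 11, 32, 34, 46 or 47, with DESeq2's size factors or with at least 10 counts in every library. It was 2 without replicate 12 or 22, 4 without replicates 12 and 23 together and 6 with no filter on low counts. The number called over all tested genes moved as well, from 64 of 11846 in the main fit. It was 103 of 11817 without replicate 12 and 65 of 11839 without replicate 22. Without replicates 12 and 23 together it was 123 of 11787, and with no filter 243 of 16135.

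**Figure D1:**
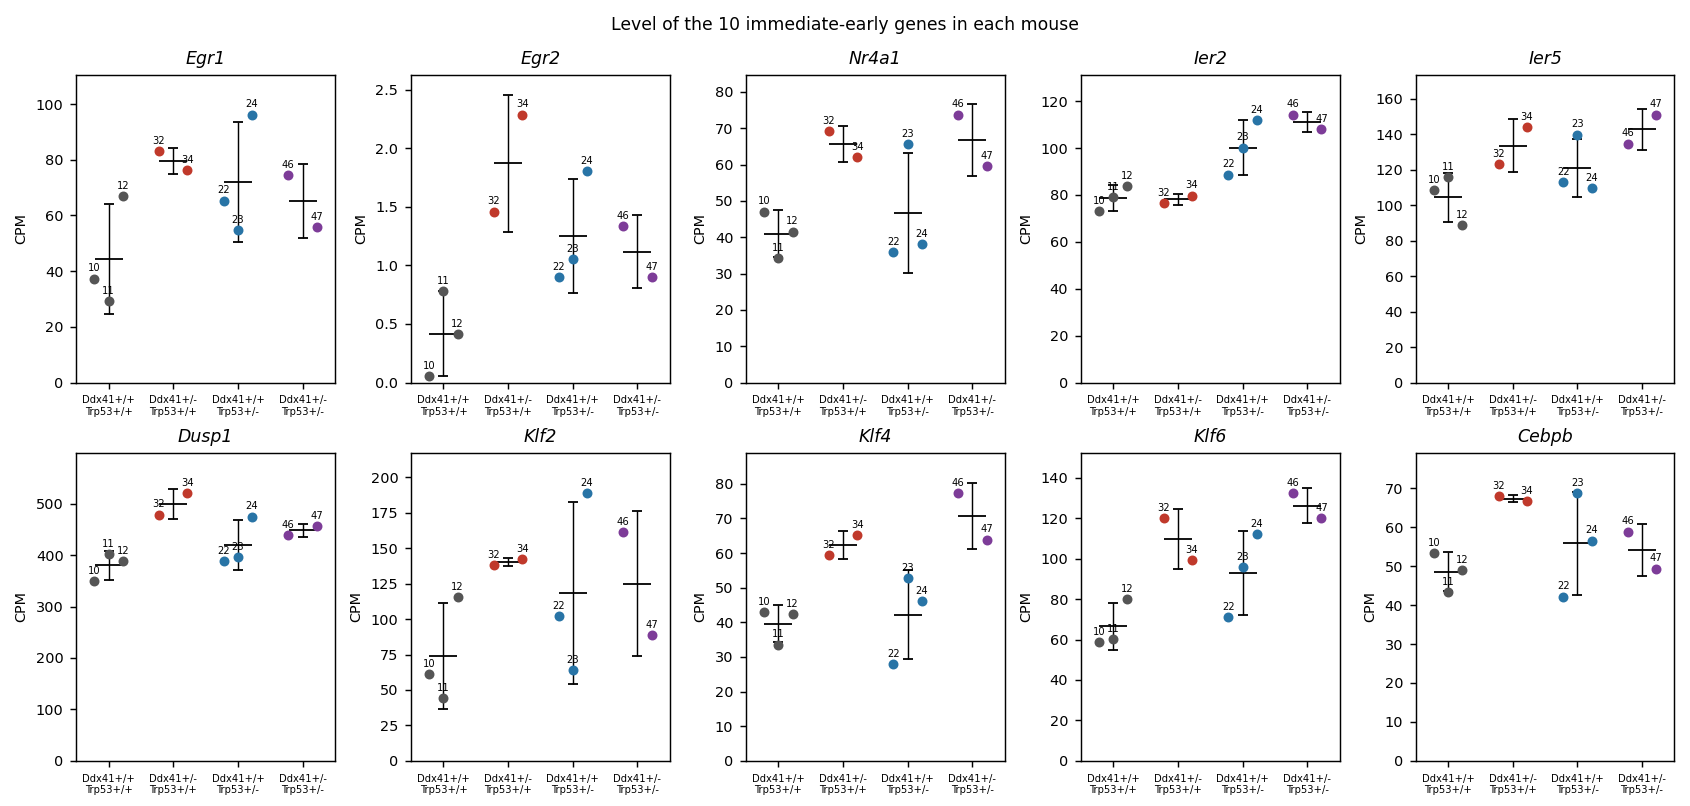
Level of each of the 10 genes in CPM (y axis, from 0) in each of the 10 mice (points, numbered by replicate) by genotype (x axis), with the mean and SD of each genotype as a bar. With Trp53+/+, the Ddx41+/- mice sit above the Ddx41+/+ mice in 9 panels, and in the panel of Ier2 the division runs between Trp53+/+ and Trp53+/-.

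Egr1 encodes a zinc finger factor that binds GC-rich sites and is among the best known targets of ERK signalling. The gene lies at chr18:34859823-34864984 (GRCm38, plus strand). Its level was 37.3, 29.3 and 66.8 CPM in the Ddx41+/+ Trp53+/+ mice and 83.0 and 76.3 CPM in the Ddx41+/- Trp53+/+ mice. With Trp53+/- it was 65.3, 54.8 and 96.2 CPM in the Ddx41+/+ mice and 74.6 and 55.9 CPM in the Ddx41+/- mice. Replicates 10 and 11 were the lowest of all 10 mice, replicate 12 stood with the mutant mice, and the Trp53+/- genotypes overlapped. Egr1 differed by a log2 fold change of 0.85 (SE 0.26) between the Ddx41 genotypes with Trp53+/+, with an adjusted p of 0.224. With Trp53+/- the difference was -0.15 (SE 0.26). The difference between these effects, tested as an interaction, was -1.0 on the log2 scale (SE 0.37, adjusted p = 0.830).

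Egr2, a relative of Egr1 that binds like sites, was barely detected. It lies at chr10:67535475-67542188 (plus strand) and had 1, 16 and 6 counts in the Ddx41+/+ Trp53+/+ mice, 24 and 18 in the Ddx41+/- Trp53+/+ mice, 9, 17 and 31 in the Ddx41+/+ Trp53+/- mice, and 23 and 16 in the Ddx41+/- Trp53+/- mice. In CPM this was 0.415 ± 0.362 (SD, n = 3), 1.87 ± 0.584 (SD, n = 2), 1.25 ± 0.485 (SD, n = 3) and 1.12 ± 0.310 (SD, n = 2). The control mice were thus below every other mouse. The Ddx41+/+ Trp53+/- mice overlapped both Ddx41+/- genotypes, of which the one with Trp53+/+ was above the one with Trp53+/-. The log2 fold change between Ddx41 genotypes was 2.10 (SE 0.70, adjusted p = 0.272) with Trp53+/+ and -0.19 (SE 0.66) with Trp53+/-. At 1 to 31 counts per library, the size of these changes was poorly determined.

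Nr4a1 encodes the orphan nuclear receptor NUR77, which responds to antigen receptor and stress signals and is abundant in patrolling monocytes. At chr15:101254269-101274795 (plus strand), it was read at 47, 34.2 and 41.6 CPM in the Ddx41+/+ Trp53+/+ mice and at 69.1 and 62.1 CPM in the Ddx41+/- Trp53+/+ mice. The Ddx41+/+ Trp53+/- mice stood at 36.0, 65.7 and 38.2 CPM, and the Ddx41+/- Trp53+/- mice at 73.7 and 59.7 CPM. All 4 Ddx41+/- mice were thus above 5 of the 6 Ddx41+/+ mice, and replicate 23 lay among the Ddx41+/- mice. The log2 fold change was 0.69 (SE 0.20, adjusted p = 0.187) with Trp53+/+ and 0.51 (SE 0.20, adjusted p = 1.00) with Trp53+/-.

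The KLF genes encode zinc finger factors that bind GC and CACCC boxes. Klf4, known for its part in monocyte development and pluripotency, lies at chr4:55527143-55532466 (minus strand). Its level was 43.0, 33.6 and 42.3 CPM in the Ddx41+/+ Trp53+/+ mice and 59.4 and 65.2 CPM in the Ddx41+/- Trp53+/+ mice. With Trp53+/- it was 27.9, 52.7 and 46 CPM in the Ddx41+/+ mice and 77.3 and 63.9 CPM in the Ddx41+/- mice. The lowest of the 4 Ddx41+/- mice was above the highest of the 6 Ddx41+/+ mice, which held for no other gene of the 10. The log2 fold change was 0.65 (SE 0.19, adjusted p = 0.180) with Trp53+/+ and 0.73 (SE 0.18, adjusted p = 1.00) with Trp53+/-.

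Klf6, a broadly expressed factor induced by injury and growth factors, lies at chr13:5861482-5870394 (plus strand). It was at 58.9, 60.4 and 80.1 CPM in the Ddx41+/+ Trp53+/+ mice and at 120.0 and 99.2 CPM in the Ddx41+/- Trp53+/+ mice. The Trp53+/- mice gave 71.1, 95.8 and 112 CPM with Ddx41+/+ and 132 and 120.0 CPM with Ddx41+/-. The Ddx41 genotypes did not overlap with either Trp53 genotype. DESeq2 gave Klf6 an adjusted p of 0.00139 with Trp53+/+. In edgeR Klf6 rose with Trp53+/+ by a log2 fold change of 0.73 (SE 0.16), or 1.66-fold, with an adjusted p of 0.0493. That call stood close to its limit: it was lost in the fits without replicate 10, 11, 23, 32, 34, 46 or 47 and held without replicate 12, 22 or 24. With Trp53+/- the log2 fold change was 0.44 (SE 0.16, adjusted p = 1.00), and the difference between both effects was -0.30 (SE 0.23, adjusted p = 1.00). Klf6 lies on the same chromosome as Ddx41, 49.66 megabases away. No other gene within 15 megabases of Klf6 was called, of 42 tested. With 0.54% of all genes called, so few genes say little, and an effect of this position was not tested.

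Klf2, which keeps lymphocytes quiescent and takes part in embryonic globin expression, varied widely among mice of the same genotype. Its level at chr8:72319033-72321656 (plus strand) was 61.3, 44.1 and 116 CPM in the Ddx41+/+ Trp53+/+ mice and 138 and 142 CPM in the Ddx41+/- Trp53+/+ mice. With Trp53+/- it was 102, 64.2 and 189 CPM in the Ddx41+/+ mice and 162 and 88.7 CPM in the Ddx41+/- mice. Groups did not overlap with Trp53+/+ and overlapped broadly with Trp53+/-. The log2 fold change was 0.94 (SE 0.37, adjusted p = 0.408) with Trp53+/+ and 0.07 (SE 0.37) with Trp53+/-.

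Cebpb encodes a factor that drives macrophage genes and emergency granulopoiesis. The gene, at chr2:167688915-167690418 (plus strand), overlaps Tmem189 on the other strand, and whether strand was used in counting is not given in the sources used here. It stood at 53.4, 43.3 and 49.0 CPM in the Ddx41+/+ Trp53+/+ mice and at 67.9 and 66.8 CPM in the Ddx41+/- Trp53+/+ mice. The Trp53+/- mice gave 42.2, 68.8 and 56.6 CPM with Ddx41+/+ and 58.9 and 49.3 CPM with Ddx41+/-. The Ddx41+/- Trp53+/+ mice were thus above all mice but replicate 23. The log2 fold change was 0.47 (SE 0.15, adjusted p = 0.261) with Trp53+/+ and -0.05 (SE 0.15) with Trp53+/-.

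Among the IER genes, Ier5 encodes a stress-induced regulator of the heat shock factor HSF1, and Ier2 a small nuclear protein induced by growth factors. Ier5, at chr1:155096361-155099636 (minus strand), was at 108, 116 and 88.8 CPM in the Ddx41+/+ Trp53+/+ mice and at 123 and 144 CPM in the Ddx41+/- Trp53+/+ mice. In the Trp53+/- mice it was at 113, 139.9 and 109.9 CPM with Ddx41+/+ and at 135 and 151 CPM with Ddx41+/-. The Ddx41 genotypes did not overlap with Trp53+/+ and overlapped with Trp53+/-. The log2 fold changes were 0.35 (SE 0.12, adjusted p = 0.327) and 0.24 (SE 0.12, adjusted p = 1.00). Ier2, at chr8:84661331-84662852 (minus strand), was at 73.2, 79.1 and 83.8 CPM in the Ddx41+/+ Trp53+/+ mice and at 76.5 and 79.8 CPM in the Ddx41+/- Trp53+/+ mice. All Trp53+/- mice were higher, at 88.7, 100.2 and 112 CPM with Ddx41+/+ and at 114 and 108 CPM with Ddx41+/-. Between Ddx41 genotypes Ier2 differed by -0.01 (SE 0.10) with Trp53+/+ and by 0.15 (SE 0.10) with Trp53+/-.

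Dusp1, the phosphatase that ends MAP kinase signalling, was the most abundant of the 10. It lies at chr17:26505590-26562128 (minus strand), where AC122252.4 and AC122252.1 overlap it on its own strand and Gm8225 and Ergic1 on the other, so that reads may be shared among them. Its level was 349, 403 and 389 CPM in the Ddx41+/+ Trp53+/+ mice and 479 and 521 CPM in the Ddx41+/- Trp53+/+ mice. With Trp53+/- it was 388, 396 and 475 CPM in the Ddx41+/+ mice and 439 and 457 CPM in the Ddx41+/- mice. The Ddx41+/- Trp53+/+ mice were the highest of all 10. The log2 fold change was 0.39 (SE 0.09, adjusted p = 0.0621) with Trp53+/+, below the fold limit as well, and 0.09 (SE 0.09) with Trp53+/-. DESeq2 gave Dusp1 an adjusted p of 0.00823 with Trp53+/+, at a fold change that was also under the limit. Per kilobase of exon, Dusp1 stood at 115 ± 8.38 CPM in the Ddx41+/+ Trp53+/+ mice, followed by Ier2 at 51.7 ± 3.5, Klf2 at 39.9 ± 20.2, Cebpb at 32.3 ± 3.38 and Ier5 at 31.9 ± 4.30 (SD, n = 3). The last 3 of these did not differ beyond their spread. Klf6, Klf4, Nr4a1 and Egr1 followed between 9.92 and 15.1 CPM per kilobase, and Egr2 stood at 0.122 ± 0.107 (SD, n = 3).

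With Trp53+/-, the log2 fold changes of the genes between Ddx41 genotypes ran from -0.19 to 0.73. Klf4, Nr4a1 and Klf6 had log2 fold changes of 0.44 to 0.73, while Egr1, Egr2 and Cebpb were below 0. Ier5 (0.24), Ier2 (0.15), Dusp1 (0.09) and Klf2 (0.07) lay between, and the median over the 10 was 0.12. No gene of the 10 was called by edgeR or by DESeq2, against 0.0422% of all tested genes by edgeR, though Nr4a1 was called in the fit without replicate 23. In edgeR 3 of the 10 (Klf4, Klf6 and Nr4a1) had an unadjusted p under 0.05 and a higher level, against 2.15% of all genes, and in DESeq2 2 of the 10 had an unadjusted p under 0.05. Klf4 and Klf6 were higher without overlap, as were 9.23% of all genes. The 2 Trp53+/- comparison groups share no mouse with the Trp53+/+ ones, so the difference between the effects could be tested. Of the 10 genes, 8 had a smaller effect with Trp53+/-, and for 4 (Egr1, Egr2, Dusp1 and Cebpb) the unadjusted p of that difference was under 0.05, against 2.7% of all genes in that direction. None of the 10 was called for it by edgeR, where 0.0675% of all genes were, or by DESeq2, which gave 3 an unadjusted p under 0.05. The lowest adjusted p was the 0.830 of Egr1.

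**Figure D2:**
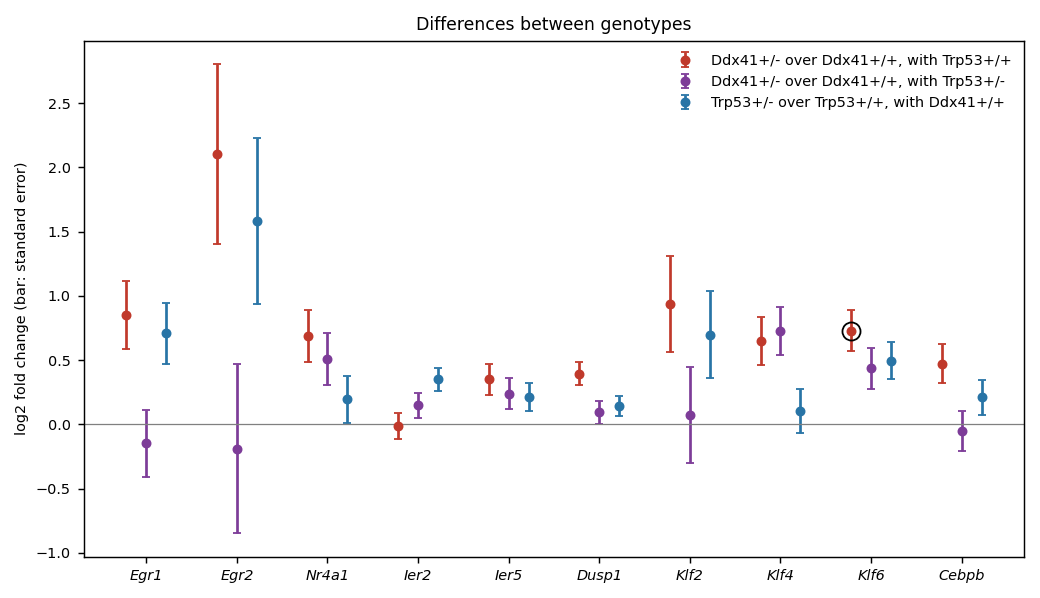
Log2 fold change of each gene (y axis, with its standard error as a bar) in the Ddx41 comparison with Trp53+/+ (red), the Ddx41 comparison with Trp53+/- (purple) and the Trp53 comparison with Ddx41+/+ (blue). A ring marks the call of Klf6. For Egr1, Egr2, Klf2 and Cebpb the red points lie well above the purple ones, and for Klf4 they lie side by side (0.65 and 0.73).

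Over both Trp53 genotypes together, the 4 Ddx41+/- mice were compared with the 6 Ddx41+/+ mice in a model with the Trp53 genotype as a further term. Klf4 rose 1.61-fold (log2 0.69, SE 0.13, adjusted p = 0.0433) and was the only gene of the 10 called, against 0.11% of all genes. Klf6 followed at 0.58 (SE 0.12, adjusted p = 0.0617) and Nr4a1 at 0.60 (SE 0.14, adjusted p = 0.130). All 10 genes had a log2 fold change above 0 (median 0.44). In edgeR and in DESeq2 alike 5 of them had an unadjusted p under 0.05, namely Klf4, Klf6, Nr4a1, Ier5 and Dusp1 in edgeR, against 5.06% of all genes that were higher. Klf4 was the 1 gene of the 10 without overlap, as were 0.794% of all genes. The call of Klf4 was lost without replicate 10, 11, 12, 24, 32, 34, 46 or 47, and without replicate 23 Klf6 and Nr4a1 were called beside it.

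The Trp53 genotypes were compared next, to see how the same genes stood where Ddx41 was intact. With Ddx41+/+, all 10 genes had a higher mean in the Trp53+/- mice, with a median log2 fold change of 0.28. No gene was called by edgeR or DESeq2, against 0.912% of all genes by edgeR. In edgeR 4 of the 10 had an unadjusted p under 0.05 (5.42% of all genes were higher by that measure), and in DESeq2 3. Ier2 came closest, at a log2 fold change of 0.35 (SE 0.09, adjusted p = 0.0837), followed by Klf6 at 0.49 (SE 0.14, adjusted p = 0.156), Egr1 at 0.71 (SE 0.24, adjusted p = 0.255) and Egr2 at 1.58 (SE 0.65, adjusted p = 0.417). DESeq2 gave Ier2 an adjusted p of 0.0236 and Klf6 one of 0.0393, both below the fold limit. Without replicate 12 edgeR called Egr1 and Klf6, and without replicate 22 Klf6. Ier2 and Egr2 were higher without overlap, as were 7.58% of all genes. This comparison shares the 3 control mice with the Ddx41 comparison with Trp53+/+, so that low values in replicates 10 and 11 enter both.

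With Ddx41+/-, Ier2 was the gene furthest from 0 relative to its error between Trp53 genotypes. It was at 78.1 ± 2.29 CPM in the Trp53+/+ mice and at 111 ± 4.28 CPM in the Trp53+/- mice (SD, n = 2 each). Its log2 fold change was 0.51 (SE 0.11, adjusted p = 0.0989), below the call rule, and DESeq2 gave an adjusted p of 0.00833 at a fold change under the limit. Of the 10 genes 5 were above 0 and 5 below, and none was called by edgeR or DESeq2, against 0.169% of all genes by edgeR. Ier2 was the 1 gene with an unadjusted p under 0.05 in either tool, where edgeR had 2.79% of all genes higher. Ier2 was also higher without overlap, as were 18.8% of all genes, and Egr1, Egr2, Dusp1 and Cebpb were lower without overlap in both Trp53+/- mice, as were 18.5% of all genes. Their log2 fold changes were -0.29 (SE 0.29), -0.71 (SE 0.72), -0.16 (SE 0.10) and -0.32 (SE 0.17), and none of these had an unadjusted p under 0.05.

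The 10 genes did not follow a single order of the mice. When each gene's log2 CPM was standardized over the mice, the mean over the 10 genes was lowest in replicates 11 (-1.07) and 10 (-1.06), followed by replicates 22 (-0.63) and 12 (-0.56). It was highest in replicates 46 (0.87), 34 (0.74) and 32 (0.59), with replicates 24 (0.47), 47 (0.42) and 23 (0.24) between. Replicate 46 held the highest level of 4 genes and was above the mean in all 10, and replicates 10 and 11 were above the mean in none. The pattern differed among genes. Egr1 and Klf2 were highest in replicate 24 and lower in replicate 23, and Nr4a1, Klf4 and Cebpb were higher in replicate 23 than in replicate 24. Ier5 was lowest in replicate 12, where Egr1 and Klf2 reached more than the other controls.

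**Figure D3:**
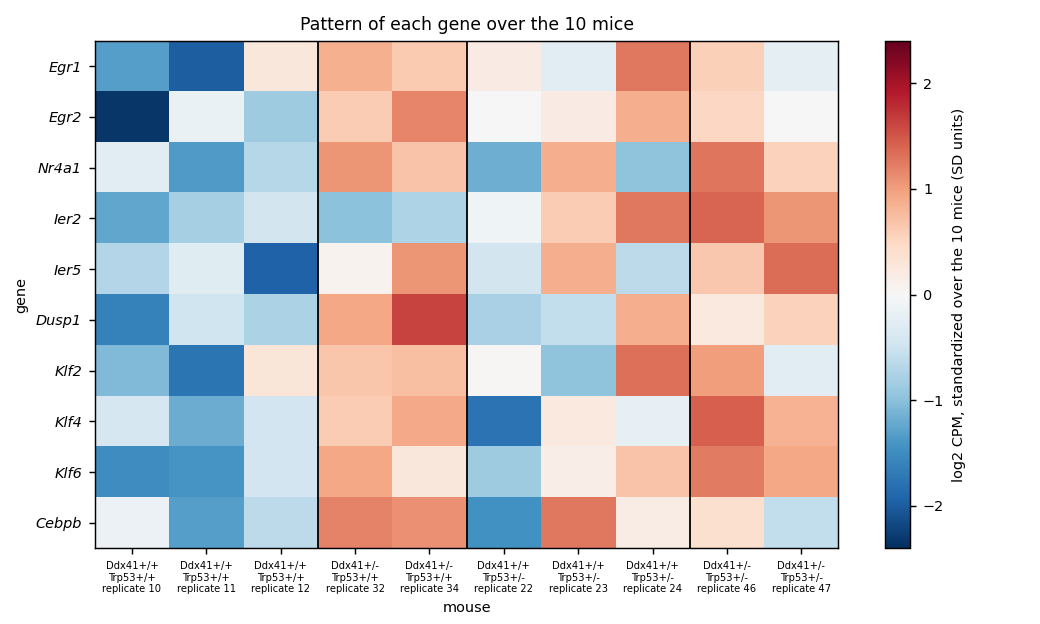
Log2 CPM of each gene (rows), standardized over the 10 mice (colour, in SD units, red above and blue below the mean), by mouse (columns, lines between genotypes). Replicates 10 and 11 are blue in every row and replicate 46 is red in every row, while within the Ddx41+/+ Trp53+/- mice the rows disagree.

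Among all other tested genes, the 5 whose log2 CPM over the 10 mice was most like the mean of the standardized genes were Btbd3 (Pearson r 0.965), Ctbs (0.964), Junb (0.951), Csrnp1 (0.950) and Rasgef1b (0.950). These are descriptions over 10 mice that share their libraries with the genes described. Btbd3 was at 0 to 0.762 CPM, too low to carry weight. Junb, an AP-1 subunit, averaged 130.2 CPM in the Ddx41+/+ Trp53+/+ mice, 196 CPM in the Ddx41+/- Trp53+/+ mice, 162 CPM in the Ddx41+/+ Trp53+/- mice and 185 CPM in the Ddx41+/- Trp53+/- mice. Its log2 fold change between Ddx41 genotypes with Trp53+/+ was 0.58 (adjusted p = 0.0153), just short of the fold limit. Csrnp1, a nuclear protein induced with the immediate-early genes, averaged 14.0, 26.8, 22 and 25.6 CPM in the same order, and Rasgef1b, an exchange factor for RAS-like GTPases, averaged 1.66, 5.81, 2.97 and 5.93 CPM. Both rose with Trp53+/+, by 0.94 (adjusted p = 0.00338) and 1.77 (adjusted p = 0.0466). Junb, Csrnp1 and Rasgef1b were picked for likeness to a mean that was itself lower in the Ddx41+/+ Trp53+/+ mice than in the Ddx41+/- Trp53+/+ mice. Higher levels in this comparison were thus favoured by the selection and are no separate result.

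Related genes were followed in 8 lists to see whether the whole response or only these genes moved. In the Ddx41 comparison with Trp53+/+, the AP-1 genes were above 0 in 8 of 8 (median 0.61), with Fosb called at 1.01 (SE 0.17, adjusted p = 0.00673), and 7 had an unadjusted p under 0.05 and a higher level. Over all tested genes, as above, these shares were 0.54% called and 5.52% higher at an unadjusted p under 0.05. DESeq2 called Fosb and Atf3 in that list. Other immediate-early genes were above 0 in all 19 tested of 21 listed (median 0.44), 11 with an unadjusted p under 0.05. Of these Csrnp1 and Maff, a small MAF factor, were called, Maff at 1.5 (SE 0.33, adjusted p = 0.0493). DESeq2 called 5 genes of that list. The other MAP kinase phosphatases, kin of Dusp1, were above 0 in 9 of 9 (median 0.79), 5 with an unadjusted p under 0.05. None of them was called by edgeR, and DESeq2 called 1, Dusp6, a phosphatase of ERK, which stood at 0.88 (SE 0.21, edgeR adjusted p = 0.0710).

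The relatives of Egr1 and Nr4a1 and the NAB corepressors, which bind EGR factors, were above 0 in 5 of 5 tested (median 0.49), 2 with an unadjusted p under 0.05 and none called by edgeR or DESeq2. Egr3 was at 1.34 (SE 0.42, adjusted p = 0.240). The other 2 IER genes had values of -0.02 for Ier3 and 1.51 for Ier5l (SE 0.63, adjusted p = 0.435), 1 with an unadjusted p under 0.05 and none called by either tool. Ier5l was barely detected, at 0.316, 0.535 and 0.692 CPM in the Ddx41+/+ Trp53+/+ mice. Replicate 32 lay within that range at 0.608 CPM, and only replicate 34 lay above it, at 2.54 CPM.

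The remaining lists hold family members and upstream regulators. The other KLF genes had a median of 0.02, with 6 of 10 tested above 0, 1 at an unadjusted p under 0.05 and none called by edgeR or DESeq2. Klf1, the master factor of red cell genes, differed by 0.04 (SE 0.07) and Klf3 by -0.12 (SE 0.08). The other C/EBP genes had a median of 0.19, with Cebpg at -0.04 (SE 0.13), Cebpe at 0.23 (SE 0.24), none under an unadjusted p of 0.05 and none called by either tool. The kinases and factors upstream, among them Map2k3 at -0.12 (SE 0.07), had a median of 0.02 over 22 genes. Of these 13 were above 0, none had an unadjusted p under 0.05, and none was called by edgeR or DESeq2.

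**Figure D4:**
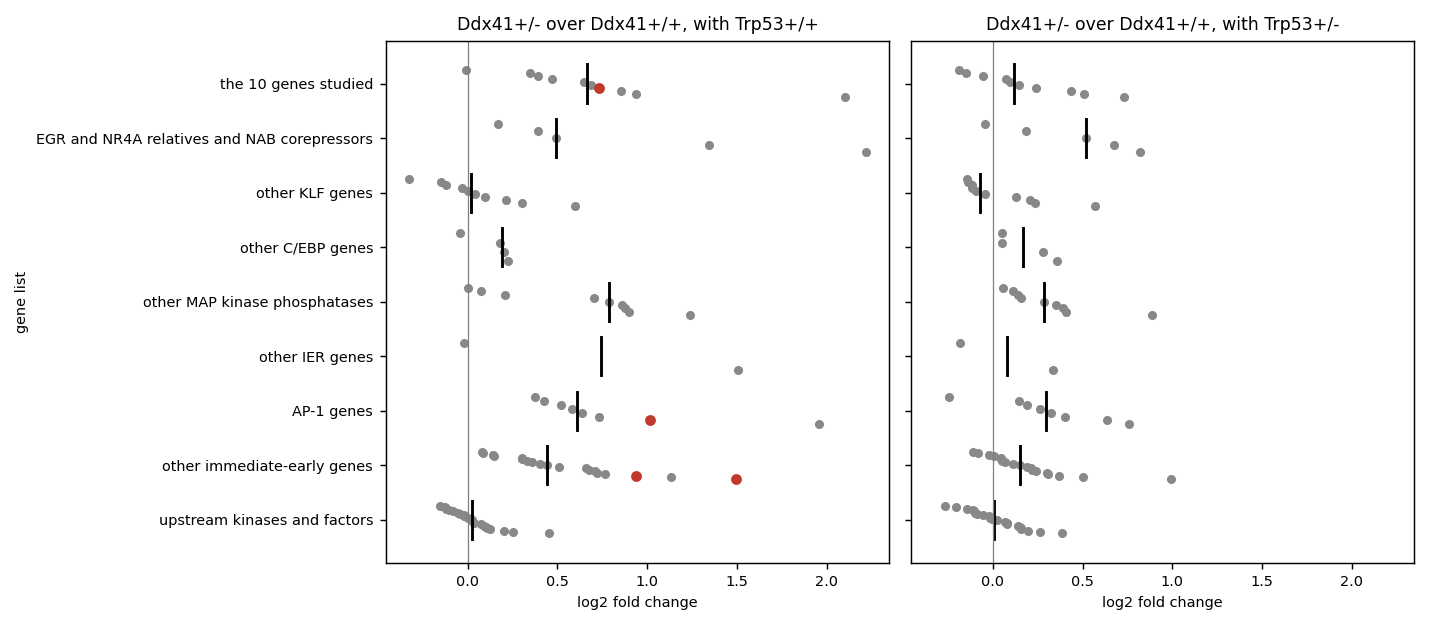
Log2 fold change between Ddx41 genotypes (x axis) of each tested gene (points) of the 10 genes and of 8 related lists (rows), with Trp53+/+ at left and Trp53+/- at right. Black bars are medians and red points are called genes. With Trp53+/+ the medians of the 10 genes (0.67), the MAP kinase phosphatases (0.79) and the AP-1 genes (0.61) stand to the right, and those of the other KLF genes and the upstream kinases (both 0.02) at 0.

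With Trp53+/-, the same lists had medians of 0.29 for the AP-1 genes, 0.15 for the other immediate-early genes, 0.29 for the MAP kinase phosphatases and 0.52 for the EGR and NR4A relatives. The other KLF genes stood at -0.07 and the upstream kinases at 0.01. No gene of any of the 8 lists was called by edgeR there, with 2 AP-1 genes and 2 other immediate-early genes at an unadjusted p under 0.05, while DESeq2 called 1, the AP-1 partner Atf3. Over both Trp53 genotypes Fosb (0.83, SE 0.12, adjusted p = 0.0164), Atf3 (0.75, SE 0.12, adjusted p = 0.0251) and Maff (1.23, SE 0.22, adjusted p = 0.0402) were called. In the Trp53 comparison with Ddx41+/+ the calls were Egr3 (1.68, SE 0.37, adjusted p = 0.0395), Dusp10 (1.32, SE 0.28, adjusted p = 0.0316), Csrnp1 (0.66, SE 0.12, adjusted p = 0.0143) and Nfkbia (0.74, SE 0.14, adjusted p = 0.0154). Egr3 is a further EGR factor, Dusp10 acts on stress kinases, and Nfkbia encodes the inhibitor of NF-kB. DESeq2 called these 4 and also Dusp6 and Sik1.

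Promoter windows of 300 bases (250 before and 50 after a transcription start, RefSeq, GRCm38.p6) were at hand for 8 of the 10 genes, 12 windows in all, and not for Egr1 or Ier2. They were searched on both strands for the sites of SRF, CREB and ETS factors, through which immediate-early genes are classically induced. The sites of the EGR and AP-1 factors, which such genes encode, were searched for as well. The CArG box, which SRF binds, was found in 4 of the 12 windows, against 1.63% of all 32851 windows. These were windows of Egr2 only, and some of them overlap and hold the same site. The full CREB site TGACGTCA was found for Dusp1 only, in 1 of the 12 windows (1.79% of all windows). The EGR site GCGNGGGCG was found for Nr4a1, Klf2 and Klf4, in 3 of the 12 windows (5.55% of all windows). The AP-1 site TGANTCA (7.81% of all windows) and the ETS site CCGGAAG (8.86%) matched in none of the 12 windows. A match is a description of letters and not evidence of binding. The stretches with the matches of 4 genes are shown because they carry the 3 kinds of motif among genes that were higher together in the Ddx41+/- Trp53+/+ mice, each written 5′ to 3′ on the gene's strand with the motif in capitals.
Egr2, chr10:67537469-67537528 (plus), CArG box: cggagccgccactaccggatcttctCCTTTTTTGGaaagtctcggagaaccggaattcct
Egr2, chr10:67537772-67537831 (plus), CArG box: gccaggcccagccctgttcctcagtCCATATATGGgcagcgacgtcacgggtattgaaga
Dusp1, chr17:26508583-26508640 (minus), CREB site: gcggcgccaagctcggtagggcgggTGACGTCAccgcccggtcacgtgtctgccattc
Nr4a1, chr15:101266761-101266819 (plus), EGR site: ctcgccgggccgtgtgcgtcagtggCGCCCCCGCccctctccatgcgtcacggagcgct
Klf2, chr8:72318838-72318896 (plus), EGR site: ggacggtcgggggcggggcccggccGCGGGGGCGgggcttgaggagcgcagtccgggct

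The motifs began 72 bases before a start in both Egr2 stretches, 143 before that of Dusp1, 60 before that of Nr4a1 and 199 before that of Klf2. Klf4 held 2 EGR sites, 211 and 194 bases before its start. Klf6, Cebpb and Ier5, of which Klf6 was called and the others were higher without overlap, had no match to any of the 5 motifs in these windows. With Trp53+/+ the genes with an EGR site ranged from 0.65 to 0.94 on the log2 scale, Egr2 stood at 2.10, Dusp1 at 0.39, and the genes with no match ranged from 0.35 to 0.73.

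Markers of other cells were read in the same libraries, since the sort may hold cells other than R2 cells. The summed level of 10 B cell markers was 87.9, 44.0 and 92.2 CPM in the Ddx41+/+ Trp53+/+ mice, 114 and 183 CPM in the Ddx41+/- Trp53+/+ mice, 170.2, 156 and 199.6 CPM in the Ddx41+/+ Trp53+/- mice and 176 and 157 CPM in the Ddx41+/- Trp53+/- mice. The control mice were thus lowest in this sum, as they were in Egr2. With Trp53+/+ all 10 markers were above 0 between Ddx41 genotypes (median 1.02). In edgeR 8 were higher at an unadjusted p under 0.05, against 5.52% of all genes. Cd79a (1.17, SE 0.24, adjusted p = 0.0312) and Ebf1 (1.62, SE 0.32, adjusted p = 0.0250) were called by edgeR, against 0.54% of all genes, and DESeq2 called 5. In the Trp53 comparison with Ddx41+/+ all 10 were higher at an unadjusted p under 0.05 in edgeR, against 5.42% of all genes. There edgeR called 6 of the 10, against 0.912% of all genes, and DESeq2 called 9. With Trp53+/- 3 of the 10 markers were above 0 between Ddx41 genotypes and none was called by edgeR or DESeq2. The 1 marker at an unadjusted p under 0.05 there was lower. For the difference between both Ddx41 effects, 7 of the 10 were lower at an unadjusted p under 0.05 in edgeR, against 2.7% of all genes. DESeq2 called 1 of them, Vpreb3, and edgeR called none. No marker of the list was at 0 in any library. The part of B cell RNA in the differences of the 10 genes was not tested.

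The summed neutrophil markers (9 genes) were 5192, 4862 and 7767 CPM in the Ddx41+/+ Trp53+/+ mice, 7626 and 5653 CPM in the Ddx41+/- Trp53+/+ mice, 5547, 5418 and 7628 CPM in the Ddx41+/+ Trp53+/- mice and 7741 and 4535 CPM in the Ddx41+/- Trp53+/- mice. Replicates 12, 32, 24 and 46 were thus highest in their genotypes. The same 4 mice were highest within their genotypes in Klf6, the gene called with Trp53+/+, and in Egr1. In Klf2 and Ier2 this held in 3 of the 4 genotypes, in Egr2, Nr4a1 and Cebpb in 2, in Dusp1 and Klf4 in 1 and in Ier5 in 0. With 2 or 3 mice in a genotype such a match is easily met, and the share of all genes with it was not counted. Monocyte and macrophage markers (12 genes) summed to 396 to 658 CPM in the Ddx41+/+ Trp53+/+ mice, 503 to 557 CPM in the Ddx41+/- Trp53+/+ mice, 347 to 402 CPM in the Ddx41+/+ Trp53+/- mice and 460.2 to 600.4 CPM in the Ddx41+/- Trp53+/- mice. In that list 7 of 12 were higher at an unadjusted p under 0.05 between Ddx41 genotypes with Trp53+/-, against 2.15% of all genes, and none of them was called by edgeR or DESeq2. In the Trp53 comparison with Ddx41+/+, 10 of 12 were lower at an unadjusted p under 0.05 (median -0.61), none was called by edgeR, and DESeq2 called 2, Ccr2 and Siglec1. The share of all genes lower by that measure was not counted. T and NK cell markers summed to 21.0 to 27.2 CPM in the Ddx41+/+ Trp53+/+ mice and, without overlap, to 27.4 to 33.8 CPM in the Ddx41+/- Trp53+/+ mice, where 7 of 10 were above 0 (median log2 fold change 0.60), 2 had an unadjusted p under 0.05 and none was called by edgeR or DESeq2. With Trp53+/- they summed to 28.8 to 32 CPM with Ddx41+/+ and 27.0 to 28.0 CPM with Ddx41+/-. Over all mice, megakaryocyte markers summed to 83.4 to 105 CPM and stem and progenitor markers to 9.62 to 20.8 CPM, and Ppbp was at 0 in 6 libraries. Erythroid markers summed to 44253 to 50220 CPM, with none of 9 tested called between Ddx41 genotypes by edgeR or DESeq2 and none under an unadjusted p of 0.05 with either Trp53 genotype. Of these 9, 2 were above 0 with Trp53+/+ (median -0.04) and 2 with Trp53+/- (median -0.12). Over both Trp53 genotypes 1 was above 0, and in edgeR 1, Slc4a1 (-0.10, SE 0.05), was lower at an unadjusted p under 0.05. Whether RNA of neutrophils, macrophages, T and NK cells, or stem and progenitor cells had a part in the differences was not tested.

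**Figure D5:**
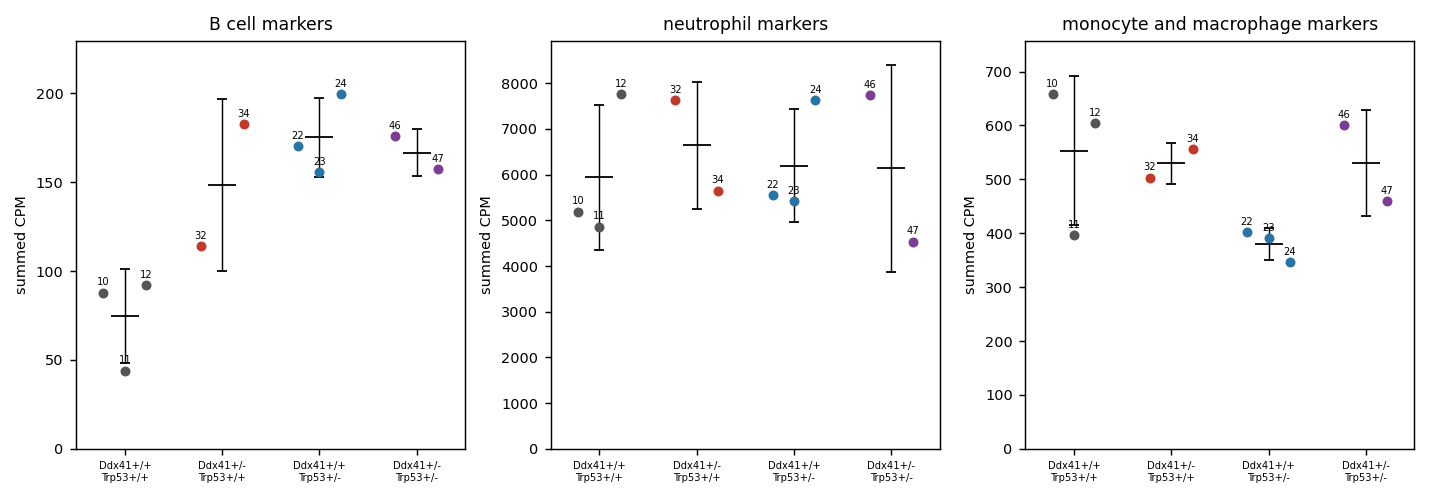
Summed CPM (y axes, from 0) of markers of B cells, neutrophils, and monocytes and macrophages in each mouse (points, numbered by replicate) by genotype, with mean and SD as bars. B cell markers are lowest in the Ddx41+/+ Trp53+/+ mice (44.0 to 92.2 CPM), and neutrophil markers differ among mice of the same genotype.

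The genome around each gene was examined for other calls. Klf2 and Ier2 lie on chromosome 8 in a region rich in calls of the Ddx41 comparison with Trp53+/+, in which 0.54% of all tested genes were called. Within 15 megabases of Klf2, a distance chosen after the values were seen, 12 of 207 other tested genes were called (5.8%), 3 higher and 9 lower. Within 15 megabases of Ier2 it was 10 of 227 (4.41%). These calls, among them Ints10, Clgn and Gcdh, spanned 68793929 to 86061376 on that chromosome. Within the same distance of Egr2, Nr4a1, Ier5, Klf4 and Klf6 no other gene was called by edgeR. Near Egr1 3 of 113 were called (2.65%), near Dusp1 3 of 352 (0.852%) and near Cebpb 2 of 211 (0.948%). What part the chromosome 8 region had in the values of Klf2 and Ier2, or the calls near Egr1 in its values, was not tested.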

How the data were processed

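For the 10 libraries, each from 1 mouse, the authors deposited raw counts of reads, listed by gene symbol and not normalized. The submitters' notes name FastQC 0.11.7, HISAT2 2.0.5, featureCounts 1.5.2 and mm10, and the annotation and strand setting of the counting are not given in the sources used here. No molecular identifiers are named, so reads are not independent molecules. Mice 35 and 45, which the table is named as leaving out, were not analysed here.

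Counts were tested in R 4.3.3 with edgeR 4.0.16 (quasi-likelihood F-test, TMM scaling, filterByExpr by genotype, which removed 12575 genes, 1 mean per genotype over all libraries), with the Trp53 genotype as an additive term for the comparison over both. P-values are two-sided, Benjamini-Hochberg adjusted over 11846 genes, and SE is the absolute log2 fold change over the square root of F. Calls needed an adjusted p under 0.05 together with a change of more than 1.5-fold. DESeq2 1.42.0 ran on the same genes. The procedure was tested on simulated data.

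Named were the 10 genes, the genes called in a list or, where none was called, the 2 with most counts, the 5 most alike in pattern, and Ddx41 and Trp53, except for items not reported here. Dusp6, Sik1, single markers and the neighbours on chromosome 8 were chosen after their values were seen. Genes, lists and tests were chosen with earlier results of these data known. Positions are GENCODE M21 on GRCm38. None of the 10 genes shared a stretch of 75 bases with another gene's transcripts.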

Additional observations from a re-analysis of the deposited data

How the results depend on the processing

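Alternatives were DESeq2, edgeR with DESeq2's size factors, every gene with a count kept (no filter), at least 10 counts in every library (which drops Egr2), the likelihood ratio test, no limit on the fold change, only the 2 genotypes compared, each mouse left out in turn, and replicates 12 and 23 left out together, as an earlier analysis of these libraries had done. With Trp53+/+ the number of the 10 genes called between Ddx41 genotypes was 1 (Klf6). It was 0 with DESeq2's size factors, 6 with no filter (Egr1, Egr2, Klf2, Klf4, Klf6 and Nr4a1), 0 with at least 10 counts, 3 in only the 2 genotypes compared (Klf4, Klf6 and Nr4a1), 4 without replicates 12 and 23 (Egr1, Klf2, Klf6 and Nr4a1), and 0 to 2 with 1 mouse left out. With Trp53+/- it was 0, then 1 with no filter (Klf4), 1 without replicates 12 and 23 (Nr4a1), and 0 to 1 with 1 mouse left out (Nr4a1 without replicate 23). For the difference between both effects it was 0, then 2 with no filter and 1 without replicates 12 and 23 (Egr1). In the Trp53 comparison with Ddx41+/+ it was 0, then 2 with no filter and 2 without replicates 12 and 23 (Egr1 and Klf2 each time), and 0 to 2 with 1 mouse left out (Egr1 and Klf6 without replicate 12, Klf6 without replicate 22). Over both Trp53 genotypes it was 1 (Klf4), then 2 with no filter and 2 by the likelihood ratio test (Klf4 and Nr4a1 each time), 0 with at least 10 counts, 3 without replicates 12 and 23, and 0 to 3 with 1 mouse left out. In the Trp53 comparison with Ddx41+/- it was 0 throughout. The number called among all tested genes moved as well. Between Ddx41 genotypes with Trp53+/+ it was 64 of 11846 in the main fit and 58 of 11846 with DESeq2's size factors. With no filter it was 243 of 16135, and with at least 10 counts 53 of 10010. It was 47 of 11477 in only the 2 genotypes compared and 123 of 11787 without replicates 12 and 23. With Trp53+/- it was 5 of 11846, then 39 of 16135 with no filter and 14 of 11787 without replicates 12 and 23. The cause of these shifts was not tested.

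The direction held better than the calls. Of 338 alternative values of the 10 genes in the Ddx41 comparisons, 14 changed sign. With Trp53+/+ 9 of 10 genes never did. Ier2 went to 0.0363 without replicates 12 and 23, and ran from -0.0606 to 0.0360 with 1 mouse left out. With Trp53+/- 6 of 10 never did. Without replicates 12 and 23 Klf2 went to -0.23 and Cebpb to 0.12. With 1 mouse left out, the values ran from -0.37 to 0.12 for Egr1, -0.50 to 0.18 for Egr2, -0.42 to 0.60 for Klf2 and -0.21 to 0.12 for Cebpb. No paired analysis was possible because the genotypes share no replicate numbers. Depth limits Egr2 (1 to 31 counts per library), and the 2 or 3 mice per genotype limit the rest. Where a genotype was left with 1 mouse, that mouse was assumed to vary like the others.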
